A study of Mus musculus with 10 samples.

Results

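The mouse kidneys described here had a blocked ureter and came from animals that were given PBS and no drug. They are 5 of the 10 libraries of the series, all those whose treatment is labelled control, and every gene of the deposited table was examined in them. The study asked how dimethyl malonate affects obstructive nephropathy, and these 5 kidneys were its untreated arm. Values of the other 5 libraries, from mice that received dimethyl malonate, were not analysed here.

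The mice were wild-type (WT) males on the C57BL/6 background. At 8 weeks of age their left ureter was tied off with 2 ligatures (unilateral ureteral obstruction, UUO), they were treated with PBS every other day, and the kidney was taken on day 14. RNA of whole kidney tissue was sequenced as 1 library per mouse. No sham-operated or contralateral kidney was analysed here, so the levels below describe obstructed tissue and are not changes from healthy tissue. Replicates are named kidney 1 to kidney 5 after the number in their labels, and wherever 5 values follow each other they stand in that order.

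With the ureter tied off, the tubules of the kidney come under pressure. In this model, tubule cells lose their transport and metabolic programs and take on an injured state, fibroblasts and pericytes turn into matrix-producing myofibroblasts, and macrophages and other leukocytes enter the tissue. The proximal tubule, which reabsorbs most of the filtered load and burns fatty acids in its mitochondria, is the segment best known for losing its differentiated transcripts.

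All 5 libraries were of like depth, and 2 of them stood apart in composition. Total counts on genes were 18078777, 16457495, 17825223, 18068465 and 16508788 (mean 17387749.6 ± 832199, SD, n = 5). At least 10 counts were found in every kidney for 15536 genes, of which 14045 were protein-coding, and an FPKM (counts scaled to gene length and library size) of at least 1 in every kidney for 12970 genes. Protein-coding genes took 98.6 ± 0.0883% of the counts (SD, n = 5). No pair of libraries held identical counts, and Pearson's r across genes of log2 CPM (counts scaled to library size) lay between 0.961 for kidneys 3 and 4 and 0.990 for kidneys 1 and 2. Genes are not independent of each other, so r is only a description.

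Kidneys 3 and 4 lay at opposite ends of the main axis of variation. The leading principal component of the 15477 genes kept after filtering on low counts held 56.2% of the variance, with weights of 0.13, -0.01, 0.73, -0.64 and -0.21. Kidney 3 also had the lowest share of counts on genes annotated as rRNA, where the percentages were 0.118, 0.115, 0.0148, 0.0851 and 0.0850, and the highest share on the mitochondrial genome, with percentages of 2.14, 2.30, 3.66, 1.97 and 2.004. Kidney 4 had the lowest mitochondrial share. These shares are given because kidney 3 stood at an end of both, as it did in many of the results below. The part of these shares in those results was not tested. Many SDs of lists fell when both kidneys were left out, a choice made after seeing the data, and such values are given beside many of the lists below. Where a kidney left out was the highest or lowest of a list, a lower SD follows largely by construction. Over all kept genes 28.4% were highest and 28.6% lowest in kidney 3, and 25.2% were highest and 24.9% lowest in kidney 4. The counts of genes highest or lowest in these kidneys below are to be read beside those shares.

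The transcripts that dominated these kidneys, compared per length as FPKM, were osteopontin, the mitochondrial genome, genes of tubular injury, antigen presentation and protein synthesis, and 2 products of the proximal tubule, Kap and Gpx3. Spp1, which encodes osteopontin, a secreted phosphoprotein of injured tubules and macrophages, was the nuclear protein-coding gene of the highest median, 7808 FPKM. Its values were 6847, 7808, 6637, 9518 and 7953 FPKM. Kidney 4 was the highest and kidney 3 the lowest, and the highest held 1.43 times the CPM of the lowest. Spp1 lies at chr5:104435118-104441050 (mouse build mm10), and other annotated genes cover 18.8% of its exonic bases.

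Of the other 14 nuclear genes of highest median FPKM, 3 serve the presentation of antigen. B2m, the light chain of MHC class I, reached 1629 ± 311 FPKM (SD, n = 5), Cd74, the invariant chain of MHC class II, 1634 ± 255 FPKM, and H2-Eb1, a class II beta chain, 742 ± 126 FPKM. The median over all genes kept after the filter on low counts was 6.14 FPKM, far below all 3. Ly6a, the surface antigen Sca-1, gave 1326, 661, 1180.2, 1153 and 1229 FPKM, with kidney 2 well below the other kidneys. Ly6a has close paralogs, so that its level is uncertain.

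Housekeeping and secreted proteins made up most of the remainder. The translation elongation factor Eef1a1 gave 2262 ± 125 FPKM (SD, n = 5), the ferritin heavy chain Fth1 2090.4 ± 252, the ribosomal protein Rplp1 905 ± 88.7 and thymosin Tmsb4x 850.1 ± 84.98. Clusterin (Clu), a secreted chaperone of damaged tubules, reached 1065 ± 124 FPKM, Igfbp7, which binds insulin-like growth factors, 1835 ± 119, the lysosomal protein Psap 811 ± 72.04 and the calcification inhibitor Mgp 767 ± 121. Of the 15 leading nuclear genes 2, Kap and Gpx3, had an SD of log2 CPM above 0.5, and 5 had an SD below the median of all kept genes. Over all kept genes 7.50% passed an SD of 0.5.

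Kap and Gpx3 differed from the other leading genes in that spread. Kap, an androgen-regulated protein of the proximal tubule, had 2554, 2519, 6926, 826 and 1807 FPKM, so that the highest kidney held 8.43 times as much as the lowest on the CPM scale. Gpx3, the plasma glutathione peroxidase that the proximal tubule secretes, had 1947, 1937, 3621, 1172 and 1571 FPKM. Both were highest in kidney 3 and lowest in kidney 4.

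Compared as FPKM, the mitochondrial genome was among the leading sources of RNA, although it held only 1.97 to 3.66% of counts. Its 13 protein-coding genes gave summed FPKM of 15342, 16849.7, 27979, 14177 and 14745, led by mt-Co1, a core subunit of cytochrome oxidase, with 5573, 6118, 9442, 5246 and 5285 FPKM. Cytochrome b (mt-Cytb) followed with 2688, 3175, 5194, 2512 and 2501 FPKM. Kidney 3 was the highest in all 12 of these genes that passed the filter on low counts, against 28.4% of all kept genes. The list mean had an SD of 0.49, or 0.10 without kidneys 3 and 4. The genes did not stand at like levels: 7 had a median above 800 FPKM, whereas mt-Co2, mt-Co3, mt-Atp6, mt-Nd3, mt-Nd4l and mt-Atp8 had a median under 100 FPKM. Near-identical copies of parts of the mitochondrial genome lie in nuclear chromosomes, and how the authors' counting treated such reads is not given in the sources used here, so the levels of these 6 genes are uncertain. The summed FPKM and the mitochondrial share of counts are uncertain for the same reason.

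**Figure D1:**
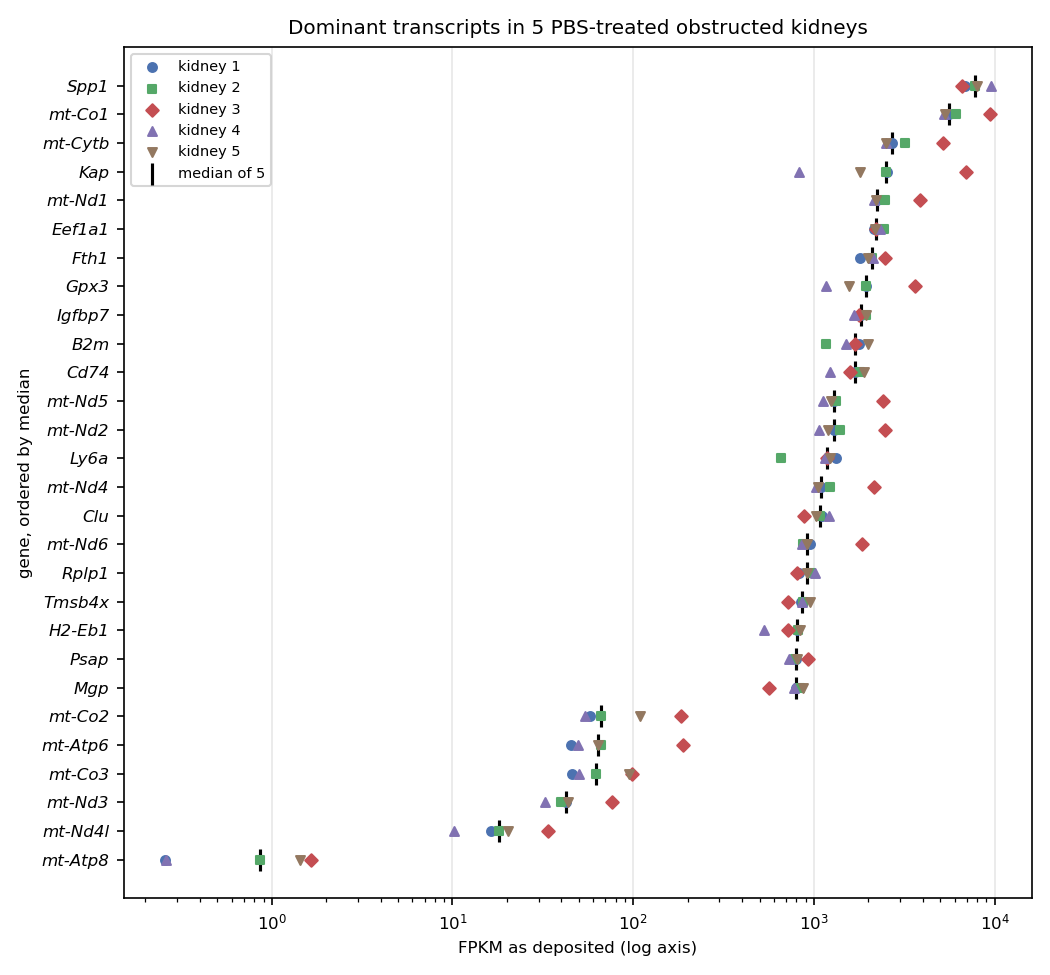
FPKM on a log axis of the 15 most abundant nuclear protein-coding genes and the 13 mitochondrially encoded genes, with a marker for each of the 5 kidneys and a bar at the median. Spp1 and mt-Co1 lead, Kap and Gpx3 are the most spread of the nuclear genes, and 6 mitochondrial genes have a median under 100 FPKM.

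No small set of genes took most of the reads. The top 10 genes by count held 4.78, 5.25, 6.36, 5.65 and 4.82% of counts, the top 50 genes 11.4, 12.02, 13.01, 12.1 and 11.5% and the top 100 genes 15.9, 16.4, 17.5, 16.3 and 16.04%. Kidney 3 had the highest share at each of these sizes. The 83 ribosomal protein genes held 2.17, 2.35, 1.95, 2.43 and 2.16% of counts, with kidney 3 the lowest, and long intergenic noncoding RNAs 0.295 ± 0.0203% (SD, n = 5).

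The entry of highest median FPKM of all was not a protein-coding gene. Gm23935 is annotated as a miRNA of 57 bases at chr16:11144125-11144181 (plus strand), and it had 10622, 10145, 1312, 7704 and 8877 FPKM from 11536, 9912, 1343, 8302 and 8642 counts. FPKM divides counts by gene length, so that a length of 57 bases gives a high value from relatively few counts. Its rank therefore does not show that it was the most abundant transcript. Kidney 3 was far below the other kidneys, as it was for the rRNA gene CT010467.1, which had 452, 447, 58.7, 329 and 332 FPKM and shares 73.9% of its exonic bases with other annotated genes. Both were chosen after their values were seen. The annotated sequence, from GENCODE release 21 for mouse, is shown because this short entry outranks Spp1 on the FPKM scale. The same bases are annotated in 3 genes, so that the level of each is uncertain. Of these, Gm24270 had 147, 303, 39.1, 172 and 167 FPKM and Gm24245 had 0 counts in every kidney.
Gm23935: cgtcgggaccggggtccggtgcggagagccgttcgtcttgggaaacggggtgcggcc

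Markers of every nephron segment were detected in these kidneys, and the proximal tubule was the segment whose level differed most between kidneys. All 15 markers shared by the parts of the proximal tubule had an FPKM of at least 1 in every kidney, with a median over genes of 41.9 FPKM against 6.14 FPKM for all kept genes. Their summed FPKM were 1051, 1095, 2527, 503 and 895. All 15 were highest in kidney 3 and all 15 were lowest in kidney 4, against 28.4% and 24.9% of all kept genes. In whole tissue, fewer cells of a type and less RNA per cell cannot be told apart.

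Of single proximal tubule genes, Slc34a1 and Lrp2 had the same highest and lowest kidneys. Slc34a1, the sodium phosphate cotransporter of the brush border, had 109, 113, 311, 27.9 and 75.2 FPKM, and megalin (Lrp2), the endocytic receptor of this segment, 28.4, 26.6, 67.8, 13.1 and 21.3 FPKM. In both of these genes kidneys 1 and 2 lay close together, kidney 5 somewhat lower, and kidneys 3 and 4 at the ends.

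On the scale of mean log2 CPM over the list, the shared proximal tubule markers deviated from their 5-kidney mean by -0.02, 0.07, 1.29, -1.10 and -0.25, an SD of 0.86. An SD of log2 CPM above 0.5 was found in 13 of 15 of these genes, whereas 7.50% of all kept genes passed that value. The SD of the list was 0.54 without kidney 3, 0.69 without kidney 4 and 0.16 without both. Since these kidneys were the highest and the lowest, leaving them out lowers the SD by construction.

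The 3 parts of the proximal tubule each had a list mean highest in kidney 3 and lowest in kidney 4. For the early convoluted part (S1), Slc5a2, the glucose transporter SGLT2, had 20.7, 22.9, 38.6, 4.82 and 12.8 FPKM and the lactate transporter Slc5a12 12.3, 10.6, 32.2, 4.31 and 7.53 FPKM. For the middle part (S2), the organic anion transporter Slc22a6 had 18.6, 20.03, 64.1, 4.59 and 18.9 FPKM, and for the straight part (S3) the amino acid transporter Slc7a13 had 27.04, 25.7, 89.1, 3.76 and 7.71 FPKM. The SD of the list mean was 0.85 for S1, 1.12 for S2 and 1.10 for S3 on the log2 scale. Without kidneys 3 and 4 it was 0.27, 0.08 and 0.55, and kidney 5 was low in S3 but not in S2. Of the 6 S3 genes 4 were lowest in kidney 4, against 24.9% of all kept genes. The members were not alike in spread, and Slc13a1, a sulfate transporter of S2, had 40.7, 55.3, 54.2, 33.7 and 48.6 FPKM and an SD of 0.30.

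The distal segments were less spread, with kidney 3 again the highest, while the low end was shared by kidneys 4 and 5. Of the thick ascending limb, which dilutes the urine, uromodulin (Umod) was by far the most abundant marker at 861, 749, 1116, 566 and 476 FPKM, and the cotransporter NKCC2 (Slc12a1) had 55.6, 34.4, 91.3, 28.4 and 25.7 FPKM. All 10 markers of this limb were highest in kidney 3, against 28.4% of all kept genes. An SD above 0.5 was found in 5 of 10, against 7.50% of all kept genes. The list mean had an SD of 0.62, which was 0.40 without kidney 3. Of the 10 markers 5 were lowest in kidney 4, against 24.9% of all kept genes. Egf, the growth factor precursor made by the distal nephron, was the most spread of them, with 6.45, 4.21, 23.5, 1.31 and 1.42 FPKM.

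The distal convoluted tubule and the collecting duct were present at lower levels. The thiazide-sensitive cotransporter Slc12a3 had 22.6, 18.7, 32.3, 12.1 and 13.1 FPKM, whereas parvalbumin (Pvalb), another marker of the distal convoluted tubule, had counts of 0, 0, 3, 0 and 0. Of principal cells, the water channel Aqp2 had 39.8, 25.5, 102, 22.3 and 18.7 FPKM and Hsd11b2, which protects the mineralocorticoid receptor from glucocorticoids, 94.6, 98.2, 127, 71.5 and 94.4 FPKM. The vasopressin receptor gene Avpr2 was near 0 with 1, 1, 6, 2 and 1 counts, and 81.3% of its exonic bases are shared with Arhgap4 on the opposite strand, so that its level is uncertain.

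The list mean had an SD of 0.42 for the distal convoluted tubule and 0.48 for principal cells, and kidney 3 was the highest for both. For the distal convoluted tubule it was 0.23 without kidneys 3 and 4 and 0.26 with the median over genes, and it was 0.30 for principal cells without kidney 3. For principal cells the lowest kidney was 5.

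Intercalated cells and podocytes had smaller SDs of the list mean. Foxi1, the transcription factor that specifies intercalated cells, had 13.7, 17.7, 13.5, 16.4 and 18.6 FPKM, and the proton pump subunit Atp6v1g3 11.5, 11.9, 12.6, 13.3 and 15.9 FPKM. The slit diaphragm gene Nphs1 (nephrin) had 5.18 ± 0.535 FPKM (SD, n = 5), and Podxl, the sialoprotein of the podocyte surface, 62.4 ± 4.89 FPKM. None of the 10 podocyte markers had an SD above 0.5, which is near the 7.50% of all kept genes in so short a list, and their list mean had an SD of 0.11, against 0.21 for intercalated cells and 0.31 for the thin limb. The intercalated list deviated by -0.01, 0.01, 0.31, -0.27 and -0.03 on the log2 scale. In 6 of its 12 genes kidney 3 was the highest, against 28.4% of all kept genes. Without kidneys 3 and 4 the SD was 0.02 for intercalated cells and 0.07 for podocytes.

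Urothelium, which lines the renal pelvis, and the renin-producing cells of the afferent arteriole had an order of kidneys unlike that of the tubules. The basal keratin Krt5 had 7.07, 22.7, 8.65, 33.3 and 20.5 FPKM and the uroplakin Upk1a, of the umbrella cell surface, 11.5, 27.1, 11.2, 28.1 and 15.1 FPKM. Kidney 4 was the highest in 6 of the 8 urothelial markers, against 25.2% of all kept genes. The list mean deviated by -0.55, 0.43, -0.40, 0.64 and -0.12 on the log2 scale. Kidneys 2 and 4 were thus high and kidneys 1 and 3 low, an SD of 0.52. Adipocyte genes, with summed FPKM of 0.174, 19.8, 0.215, 78.2 and 1.39, were also highest in kidneys 2 and 4. The part of adjoining tissue in this order was not tested.

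Among protein-coding genes with a mean of at least 5 CPM, renin had the spread that most exceeded the trend for its level. Ren1, at chr1:133350510-133360325 on mm10, had 13.2, 29.05, 29.3, 246 and 172 FPKM. Kidneys 4 and 5 were high and the other kidneys low, with 18.7 times as much in the highest as in the lowest on the CPM scale. The aldo-keto reductase Akr1b7, made by the same cells, had 2.70, 2.46, 1.74, 17.5 and 3.47 FPKM and was high in kidney 4 but not in kidney 5, whereas the pericyte marker Rgs5 had 24.8, 34.4, 31.9, 42.9 and 40.4 FPKM and an SD of 0.31. The SD of this 3-gene list was 1.06, or 0.68 without kidney 4.

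Injury transcripts were high in every kidney. All 26 genes of the tubular injury list had an FPKM of at least 1 in every kidney, with a median over genes of 70.7 FPKM, and among all lists only the mitochondrial genome had a higher median of summed FPKM. The sums of this list were 11372, 12621, 10665, 14475 and 12816 FPKM, of which Spp1 alone, with a median of 7808 FPKM, was the largest part. By the median over genes, 4 lists stood higher. These were the mitochondrial genome (921 FPKM), MHC class II (477), glycolysis (95.6) and MHC class I (80.4). Havcr1, which encodes the injury molecule KIM-1, had 214, 317, 269, 392 and 406 FPKM and Lcn2, the lipocalin NGAL, 160.3, 170.3, 106, 169 and 127 FPKM. Kidney 3 was the lowest in 18 of 26 genes and kidney 4 the highest in 14, against 28.6% and 25.2% of all kept genes. An SD above 0.5 was found in 2 of 26 genes, or 7.69%, close to the 7.50% of all kept genes. The list mean deviated by -0.09, 0.04, -0.29, 0.23 and 0.11 on the log2 scale, an SD of 0.20 that was 0.10 without kidneys 3 and 4 and 0.11 with the median over genes in place of the mean.

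**Figure D2:**
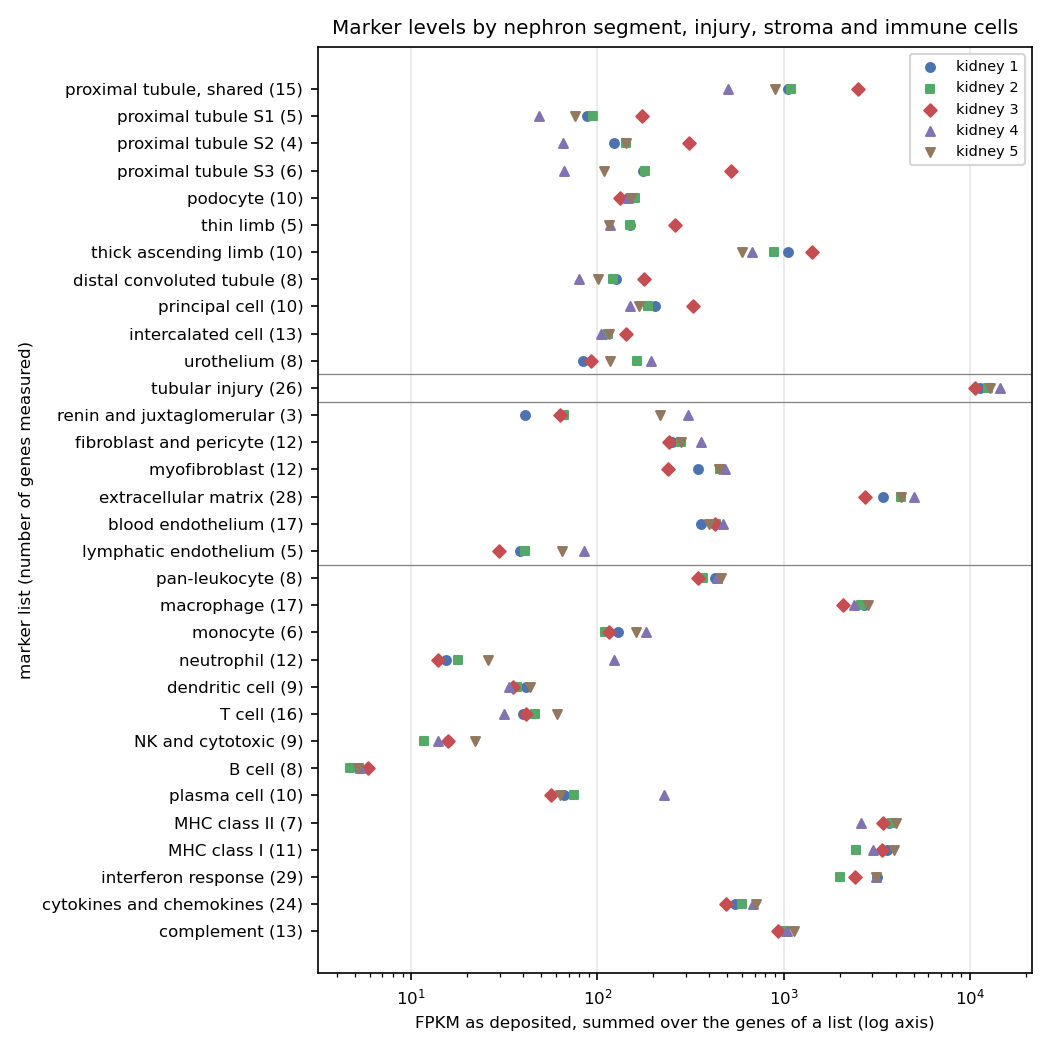
FPKM summed over the genes of each marker list, on a log axis, with a marker for each of the 5 kidneys and horizontal lines between nephron, injury, stromal and immune lists. Tubular injury has the highest sums, between 10665 and 14475 FPKM, of which Spp1 alone is the largest part. The proximal tubule, renin, neutrophil and plasma cell lists are among those of wide spread.

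Matrix and myofibroblast genes had their highest and lowest kidneys the other way round from the proximal tubule, with kidney 4 at the top and kidney 3 at the bottom of the list means. All 28 genes of the extracellular matrix list had an FPKM of at least 1 in every kidney, and their summed FPKM were 3416, 4255, 2723, 5048 and 4268. The fibrillar collagens Col1a1 and Col3a1 had 278, 402, 194, 613 and 396 FPKM and 197, 334, 171, 552 and 301 FPKM, and the matricellular protein Sparc 354, 523, 304, 629 and 474 FPKM. All 3 genes were highest in kidney 4 and lowest in kidney 3.

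Across the matrix list, kidney 3 was the lowest in 23 of the 28 genes, against 28.6% of all kept genes. Kidney 4 was the highest in 16, against 25.2%. The list mean deviated by -0.20, 0.14, -0.53, 0.43 and 0.15 on the log2 scale, an SD of 0.37 that was 0.20 without kidneys 3 and 4. An SD above 0.5 was found in 7 of 28 genes, against 7.50% of all kept genes. Mgp, the most abundant member, was not among them, with an SD of 0.24.

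Myofibroblast markers stood at lower levels and were also lowest in kidney 3. Smooth muscle alpha actin (Acta2) had 119.8, 202, 79.3, 189 and 181 FPKM, periostin (Postn) 10.7, 11.6, 6.48, 19.8 and 14.2 FPKM and tenascin C (Tnc) 52.3, 39.8, 23.4, 50.002 and 43.7 FPKM. The highest kidney of these 3 genes was 2, 4 and 1 in turn. Kidney 3 was the lowest in 11 of the 12 markers, against 28.6% of all kept genes. The list mean had an SD of 0.45, against 0.27 without kidney 3 and 0.18 without kidneys 3 and 4. Tagln, another contractile gene of these cells, had a median of only 1.49 FPKM, and 67.9% of its exonic bases are shared with Gm48529 on the opposite strand, so that its level is uncertain.

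Fibroblast, pericyte and endothelial markers were also highest in kidney 4 in most genes, 8 of 12 and 13 of 17, against 25.2% of all kept genes. Summed adipocyte genes were highest in kidney 4 as well, at 78.2 FPKM, and the part of fat here was not tested. Pdgfrb, the receptor that marks pericytes and fibroblasts, had 55.5 ± 8.84 FPKM (SD, n = 5), Pdgfra 27.4 ± 1.65 FPKM and the proteoglycan decorin (Dcn) 33.5, 45.5, 37.5, 84.8 and 44.5 FPKM, with kidney 4 the highest for decorin. Of blood endothelium, Plvap, which forms the diaphragms of fenestrae, had 130.1 ± 13.5 FPKM and VE-cadherin (Cdh5) 25.8, 38.3, 28.96, 51.4 and 31.7 FPKM. None of the 17 endothelial markers had an SD above 0.5, and 3 of 12 fibroblast and pericyte markers (25%) did, against 7.50% of all kept genes. At that share few genes of a list as short as the endothelial one would pass. The list mean had an SD of 0.17 for endothelium and 0.26 for fibroblasts and pericytes, the latter 0.14 without kidneys 3 and 4. Lymphatic markers summed to 38.3, 40.7, 29.5, 84.6 and 64.4 FPKM, with 0.432, 0.999, 0.515, 2.39 and 0.742 FPKM for Lyve1 and 5.74, 6.01, 4.84, 7.56 and 5.31 FPKM for the receptor Flt4, whereas podoplanin (Pdpn), which fibroblasts and podocytes also make, had 27.4, 32.6, 20.5, 39.4 and 32.5 FPKM. The chemokine Ccl21a, which did not pass the filter and has near-identical copies that make its level uncertain, had 3.39, 0.145, 1.66, 34.2 and 25.2 FPKM, high in kidneys 4 and 5. Of the 4 lymphatic genes kept, 3 were highest in kidney 4 and Prox1, the lymphatic transcription factor, in kidney 3 with 1.29, 1.02, 1.91, 1.02 and 0.621 FPKM. The list mean had an SD of 0.33, or 0.15 without kidney 4.

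Among leukocyte types, macrophages had the highest summed marker levels. The 17 macrophage markers had summed FPKM of 2702, 2615, 2077, 2388 and 2831, against 39.96, 46.5, 41.2, 31.5 and 60.6 for 16 T cell markers and 5.23, 4.70, 5.87, 5.28 and 5.14 for 8 B cell markers. Since the lists differ in size and in the abundance of their genes, these sums describe RNA and not numbers of cells. The F4/80 gene Adgre1 had 44.9, 41.8, 43.3, 41.7 and 48.3 FPKM, an SD of 0.08 on the log2 scale, and the receptor of colony-stimulating factor 1 (Csf1r) 52.6, 54.5, 46.3, 50.9 and 57.4 FPKM.

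Products of resident and infiltrating phagocytes stood among the abundant transcripts of the tissue. The complement component genes C1qa and C1qb had 302 ± 41.7 and 298 ± 47.4 FPKM (SD, n = 5), lysozyme (Lyz2) 530.1 ± 104 FPKM and Apoe 699 ± 79.9 FPKM, although Apoe is also made by other cells. Kidney 3 was the lowest in 13 of the 17 macrophage markers, against 28.6% of all kept genes. The SD of the list mean was 0.16, and 0.07 without kidney 3, whereas the median over genes gave 0.24. The pan-leukocyte markers were alike, with 9.40 ± 0.862 FPKM for Ptprc (CD45) and 78.3 ± 8.09 FPKM for the adaptor Tyrobp, and an SD of the list mean of 0.16.

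Neutrophil markers were low in 4 kidneys and higher in kidney 4. S100a8 had 2.80, 3.19, 2.01, 26.9 and 4.72 FPKM and S100a9, its partner in calprotectin, 4.32, 5.48, 2.99, 56.04 and 8.30 FPKM. The receptor of granulocyte colony-stimulating factor (Csf3r) had 5.40, 4.78, 4.72, 12.9 and 6.29 FPKM, and Mmp9, a metalloproteinase of neutrophil granules, 1.72, 1.91, 1.09, 7.74 and 2.38 FPKM. Kidney 4 was the highest in all 5 of the 12 listed genes that passed the filter, against 25.2% of all kept genes. The list mean deviated by -0.69, -0.43, -1.003, 2.08 and 0.04 on the log2 scale. The SD was 1.23 over all kidneys and 0.44 without kidney 4. The summed FPKM were 15.3, 17.7, 13.9, 123 and 25.9, and S100a9 was the most abundant gene.

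Kidney 4 was also the highest in 6 of 6 plasma cell genes and in 3 of 4 monocyte genes kept, against 25.2% of all kept genes. Plac8 had 102, 89.01, 89.4, 143 and 126 FPKM and Ly6c2, which marks classical monocytes and has close paralogs, 6.61, 3.49, 7.70, 10.1 and 9.74 FPKM. The immunoglobulin joining chain Jchain had 1.52, 1.65, 1.59, 7.40 and 1.84 FPKM and the heavy chain gene Ighm 33.7, 31.7, 25.3, 79.99 and 27.2 FPKM. The monocyte list mean had an SD of 0.36, with kidney 2 the lowest. Without kidney 4 the SD of the plasma cell list fell from 0.70 to 0.16, and without kidneys 3 and 4 to 0.08.

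Lymphocyte and dendritic cell markers were low and had no kidney so far from the rest. Cd4 had 3.79, 4.88, 3.62, 3.82 and 6.11 FPKM, Cd8a 2.64, 1.48, 2.63, 1.38 and 2.83 FPKM and the kinase Lck 4.03, 3.61, 3.65, 3.72 and 5.26 FPKM, with kidney 5 the highest in each. Natural killer and cytotoxic genes were lower, with a median over genes of 0.700 FPKM against 2.07 FPKM for T cells. Their values were 5.57, 5.62, 6.28, 5.09 and 8.07 FPKM for Nkg7 and 3.25, 1.30, 2.79, 3.79 and 6.40 FPKM for granzyme B (Gzmb). The B cell receptor component Cd79b had 3.01, 2.41, 3.93, 2.48 and 2.82 FPKM, whereas Ms4a1 stayed under 1 FPKM in every kidney. Xcr1, the chemokine receptor of conventional type 1 dendritic cells, had 1.56, 1.60, 1.51, 1.46 and 1.95 FPKM, and mast cell genes such as Mcpt4 and Cpa3 were at or near 0. The SD of the list mean was 0.33 for T cells, 0.26 for natural killer and cytotoxic genes, 0.13 for B cells and 0.12 for dendritic cells. Without kidneys 3 and 4 it was 0.06 for B cells and 0.08 for dendritic cells, and the median over genes gave 0.23 for B cells. The B cell SD was 0.22 without kidney 1, 0.09 without kidney 3 and 0.22 without kidney 4.

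MHC class II was abundant and was lowest in kidney 4 in all 7 of its genes, against 24.9% of all kept genes. H2-Aa and H2-Ab1, the chains of the I-A molecule, had 478, 477, 438, 333 and 501 FPKM and 641, 627, 591, 446 and 659 FPKM. The list mean deviated by 0.06, 0.11, 0.05, -0.41 and 0.19 on the log2 scale, an SD of 0.24, and of 0.07 without kidney 4. MHC class I had another order, in which kidney 2 was the lowest, with 663, 459, 644, 512 and 692 FPKM for H2-K1 and an SD of the list mean of 0.19, or 0.11 without kidney 2. Genes of the major histocompatibility complex have near-identical relatives, so that the division of reads between them is uncertain.

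Interferon-stimulated genes were expressed at high levels in all 5 kidneys although interferon genes were barely detected. All 29 genes of the interferon response list had an FPKM of at least 1 in every kidney, with a median over genes of 64.6 FPKM and summed FPKM of 3183, 2005, 2410.4, 3139 and 3125. Bst2 (tetherin) had 679.6, 296, 447, 555 and 549.9 FPKM, Ifit3 449.6, 267, 301, 464 and 417 FPKM, Isg15 344, 219, 217, 366 and 309.6 FPKM and the transcription factor Irf7 249.8, 92.3, 182, 188 and 206 FPKM. Kidney 2 was the lowest for Bst2, Ifit3 and Irf7. Among ligands, Ifnb1, Ifna1 and Ifna2 had 0 counts in every kidney, 8 of the 10 listed ligands were at 0 throughout, and Ifng had 4, 6, 7, 6 and 7 counts. In the smallest library, 0.182 CPM is the level that the upper limit of 3 counts for a count of 0 corresponds to, a limit for counting error only.

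The mean of the interferon response list deviated by 0.13, -0.33, -0.18, 0.20 and 0.17 on the log2 scale, with an SD of 0.24, and 1 of 29 genes, Irf7, had an SD above 0.5, against 7.50% of all kept genes. The median SD of its single genes was 0.28, above the 0.17 of all kept genes. Kidneys 1, 4 and 5 were high and kidneys 2 and 3 low.

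Promoters of these genes were read for the interferon-stimulated response element, which interferon-activated factors bind. The letters GAAA, any 2 bases and GAAA again were searched on both strands in the 250 bases before each transcription start in RefSeq promoters (GRCm38.p6), and matches may overlap. Of the 29 listed genes 21 matched by symbol, with 23 promoters. The motif was found in 13 of these 23 promoters (56.5%), against 978 of all 32851 promoters (2.98%). Among the 10 interferon ligands, 4 of 10 promoters held it, and of the 18 promoters of shared proximal tubule markers 1 did. A match is a description, and neither a site nor a cause. The windows below, 5′ to 3′ on the strand of the gene, show 6 of the 13 promoters with the matched letters in capitals and about 20 bases on each side. They are shown because these genes were among the more abundant members of the list.
Isg15, chr4:156200855-156200916 (minus strand): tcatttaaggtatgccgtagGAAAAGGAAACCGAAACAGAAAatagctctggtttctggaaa
Ifit1, chr19:34640765-34640833 (plus strand): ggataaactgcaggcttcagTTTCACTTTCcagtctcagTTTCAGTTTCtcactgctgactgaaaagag
Ifit3, chr19:34583353-34583436 (plus strand): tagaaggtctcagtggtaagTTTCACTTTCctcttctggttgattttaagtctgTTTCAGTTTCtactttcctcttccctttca
Bst2, chr8:71537567-71537622 (minus strand): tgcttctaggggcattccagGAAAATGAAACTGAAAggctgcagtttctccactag
Gbp2, chr3:142620584-142620633 (plus strand): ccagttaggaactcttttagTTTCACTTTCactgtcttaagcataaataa
Irgm1, chr11:48871421-48871470 (minus strand): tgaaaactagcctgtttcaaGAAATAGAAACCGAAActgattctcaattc
Isg15 held 3 overlapping matches and Ifit1, Ifit3, Bst2 and Irgm1 2 each, while Gbp2 held 1. The level of Gbp2, a guanylate-binding GTPase, was 90.2, 83.8, 105, 109.8 and 153 FPKM, and that of Irgm1, an immunity-related GTPase, 85.3, 68.5, 89.02, 82.7 and 97.2 FPKM. Ifit1, which senses foreign RNA ends, had 173, 113, 123, 191 and 170.1 FPKM.

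Cytokine genes were lower than the interferon-stimulated genes, with a median over genes of 15.2 FPKM. The membrane-bound chemokine Cx3cl1 led with 102, 122, 104, 94.8 and 108 FPKM, Cxcl10, which attracts activated T cells, had 56.03, 49.6, 50.95, 74.5 and 88.2 FPKM and Il1b 8.09, 14.2, 7.30, 26.8 and 9.86 FPKM. Il6 was low, with 10, 43, 10, 112 and 42 counts, and highest in kidney 4. Kidney 4 was the highest in 10 of the 23 genes that passed the filter, against 25.2% of all kept genes, and kidney 3 was the lowest in 14, against 28.6%. Of these genes 7 of 23 had an SD above 0.5, against 7.50%. The list mean had an SD of 0.32.

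Complement genes were abundant. C3 had 382 ± 62.6 FPKM (SD, n = 5) and the C1 inhibitor Serping1 239 ± 17.9 FPKM, and the list mean had an SD of 0.10. The median SD of its single genes was 0.26, above the 0.17 of all kept genes, and the median over genes in place of the mean gave a list SD of 0.27.

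Fatty acid oxidation and respiratory genes had the same highest and lowest kidneys as the proximal tubule markers. All 20 fatty acid oxidation genes were highest in kidney 3, against 28.4% of all kept genes. Of these 20 genes, 17 were lowest in kidney 4, against 24.9%. The list mean deviated by -0.15, -0.03, 0.76, -0.58 and -0.005 on the log2 scale. Acadm, the medium-chain acyl-CoA dehydrogenase, had 38.8, 39.03, 84.5, 23.9 and 31.96 FPKM. Acadl, the long-chain dehydrogenase and most abundant of the list, was nearly level at 97.2, 96.8, 109, 100.3 and 108 FPKM, and Cpt1a, the gate of mitochondrial import, had 60.5, 69.1, 84.1, 59.6 and 71.4 FPKM.

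All 22 nuclear genes of the respiratory chain were likewise highest in kidney 3 and 20 lowest in kidney 4, against 28.4% and 24.9% of all kept genes. None had an SD above 0.5, against 7.50% of all kept genes. Atp5b, the beta subunit of ATP synthase, had 260.1, 250.1, 354, 214 and 238 FPKM and Cox4i1, of cytochrome oxidase, 196, 205, 238, 157 and 176 FPKM. The SD of the list mean was 0.25, and 0.05 without kidneys 3 and 4, against 0.48 and 0.08 for fatty acid oxidation.

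Glycolytic genes were abundant, and 9 of 15 were highest in kidney 3 and 5 in kidney 4, against 28.4% and 25.2% of all kept genes. The list mean was highest in kidney 4 and lowest in kidney 5, with deviations of -0.06, 0.04, 0.10, 0.13 and -0.22 on the log2 scale. Ldhb had 683, 779.8, 724, 605 and 780.3 FPKM and Ldha 162, 178, 185, 187 and 156 FPKM, the 2 subunits of lactate dehydrogenase, and the list mean had an SD of 0.14, 0.09 without kidney 5 and 0.24 with the median over genes. Gapdh had a median of only 1.38 FPKM. It has many near-identical pseudogene copies, and since the treatment of reads that match several places is not given in the sources used here, its level is uncertain. Hypoxia-responsive Ndrg1 had 149, 176, 241, 120.0 and 181 FPKM and Vegfa 24.97, 26.4, 29.2, 31.03 and 20.9 FPKM, while the NRF2 target Hmox1, heme oxygenase 1, had 19.8, 34.5, 23.98, 48.7 and 24.8 FPKM and was highest in kidney 4. The list mean had an SD of 0.25 for hypoxia response and 0.26 for NRF2 targets, and 0.13 and 0.14 without kidneys 3 and 4.

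Male kidney genes and checks of sex and proliferation are set beside these. Of 6 androgen-dependent genes all were highest in kidney 3, against 28.4% of all kept genes, Cyp4b1 among them with 69.96, 59.4, 213, 30.3 and 71.1 FPKM. The list SD was 0.85, and 0.07 without kidneys 3 and 4, which were the highest and the lowest of this list. The Y-linked genes Ddx3y and Eif2s3y had 14.3 ± 1.17 and 11.9 ± 1.41 FPKM (SD, n = 5), whereas Xist, which silences an X chromosome in females, had 2, 5, 0, 3 and 11 counts. The proliferation marker Mki67 had 7.06, 9.43, 7.56, 9.03 and 7.16 FPKM and the sliding clamp Pcna 31.2, 32.8, 31.01, 40.9 and 34.8 FPKM. Kidney 4 was the highest in 14 of 15 cell cycle genes, against 25.2% of all kept genes. The cell cycle list mean had an SD of 0.24, or 0.14 without kidney 4. Immediate early genes were moderate, Jun at 57.6, 69.7, 53.2, 69.4 and 65.6 FPKM and Fos at 6.98, 7.27, 7.15, 10.6 and 9.73 FPKM, and the clock output Dbp had 2.81, 2.40, 3.33, 4.40 and 1.72 FPKM. The list mean had an SD of 0.22 for immediate early and heat shock genes and 0.12 for clock genes, and with the median over genes 0.11 and 0.20. Without kidneys 3 and 4 it was 0.06 for clock genes, and without kidney 1 0.14 for immediate early and heat shock genes.

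Genes of neighbouring tissues were low, and those of fat differed most between kidneys. The 7 adipocyte genes had summed FPKM of 0.174, 19.8, 0.215, 78.2 and 1.39, of which complement factor D (Cfd) made up the most with 0.0569, 16.3, 0.0604, 62.9 and 1.02 FPKM, and adiponectin (Adipoq) had 0, 35, 0, 229 and 5 counts. Kidneys 2 and 4 thus held adipocyte transcripts that were at or near 0 in kidneys 1 and 3. Car3, a carbonic anhydrase abundant in fat and muscle, followed in part with 1.14, 4.46, 4.08, 24.02 and 0.511 FPKM, the highest again in kidney 4, and the part of fat in its spread was not tested. Adrenal genes summed to 1.39, 1.95, 1.30, 2.63 and 2.06 FPKM, skeletal muscle genes to 1.15, 0.728, 0.732, 0.937 and 0.933 FPKM, and Schwann cell and nerve genes to 8.70, 8.39, 8.01, 8.91 and 7.70 FPKM, of which Mbp had a median of 6.61 FPKM. Liver and pancreas genes summed to 8.25, 7.24, 27.5, 3.75 and 6.32 FPKM, with albumin (Alb) at most 0.428 FPKM, and hemoglobin transcripts from blood, led by Hbb-bs with 88.4, 143, 156, 97.6 and 94.9 FPKM, were present in each kidney, with an SD of the list mean of 0.24 and near-identical copies that make each gene's level uncertain.

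**Figure D3:**
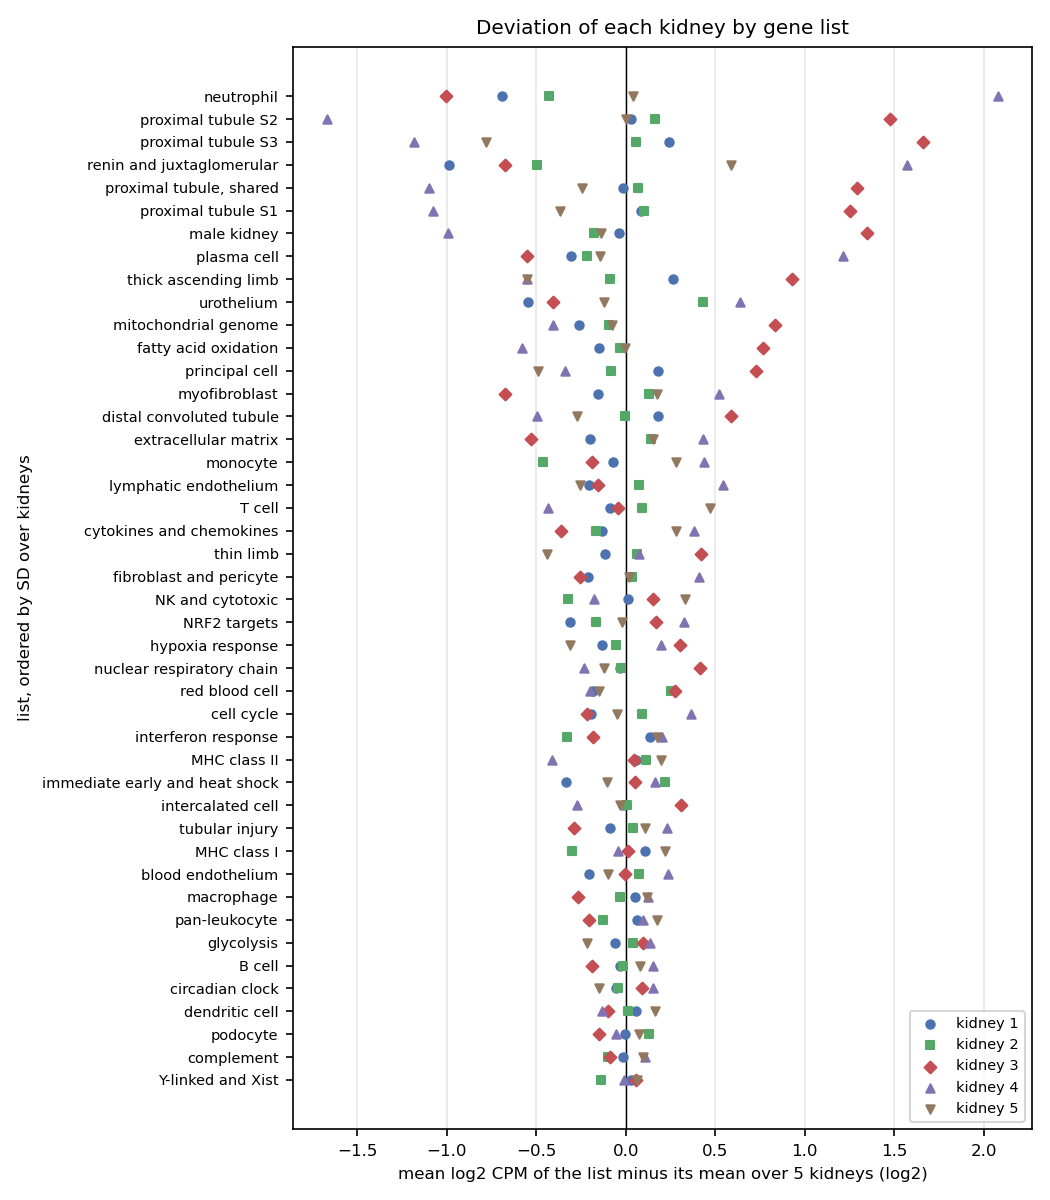
Mean log2 CPM of each gene list with 3 or more genes kept, as the deviation of each kidney from the 5-kidney mean, with lists ordered by SD. Kidney 3 lies far to the right and kidney 4 far to the left for the proximal tubule lists, the reverse holds for matrix and myofibroblast lists, and kidney 4 alone stands to the right for neutrophil and plasma cell lists.

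Most genes varied little between kidneys, and the genes of largest SD were most often highest in kidney 3. Over the 15477 kept genes the median SD of log2 CPM was 0.17, and 90% of genes lay between 0.05 and 0.58. An SD above 0.5 was found in 1161 genes (7.50%) and above 1 in 141 genes (0.911%). The common biological coefficient of variation from edgeR was 0.178, and 0.109 without kidneys 3 and 4, a set chosen after seeing the data. Those 3 kidneys left 762 genes above 0.5 and 45 above 1.

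Kidneys 3 and 4 were most often the highest or the lowest among the genes of large SD. Of the 141 genes with an SD above 1, 83 were highest in kidney 3 (28.4% of all kept genes were) and 76 were lowest in kidney 4 (24.9% were), with 74 in both sets, whereas 2262 of all 15477 kept genes (14.6%) were highest in kidney 3 and lowest in kidney 4. The reverse, highest in kidney 4 and lowest in kidney 3, held for 21 of the 141 genes (14.9%), against 1908 of all kept genes (12.3%). Leaving out kidney 3 gave 914 genes above 0.5, and leaving out kidney 4 gave 1042.

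The 20 protein-coding genes of largest SD among those with a mean of at least 5 CPM had SDs between 1.64 and 2.62. Kidney 3 was the highest in 11 of them. They included the organic anion transporter family members Slc22a8, Slc22a19, Slc22a28 and Slc22a30, all on chromosome 19. Slc22a8 (OAT3, chr19:8591254-8611834) had 5.81, 5.48, 23.4, 0.517 and 3.77 FPKM and Slc22a30 4.05, 3.55, 15.6, 0.393 and 2.07 FPKM, so that both fell below 1 FPKM in kidney 4. Acmsd, an enzyme of tryptophan breakdown, had 5.01, 3.81, 18.1, 0.635 and 1.94 FPKM with the same order, and Ugt3a1, a glycosyltransferase, 9.36, 11.6, 43.4, 1.96 and 4.91 FPKM. The Slc22a and Ugt genes have close paralogs, so that the level of each is uncertain.

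Other genes of this set were highest elsewhere. Ppbp, the platelet basic protein and the most spread of all with an SD of 2.62, had 0.872, 10.5, 0.823, 25.4 and 44.2 FPKM, low in kidneys 1 and 3. The platelet factor gene Pf4, looked up after this was seen, had 6.33, 14.9, 6.95, 29.6 and 12.02 FPKM. The lectin receptor Clec4d had 0.492, 0.876, 0.488, 11.5 and 2.67 FPKM, the niacin receptor gene Hcar2 1.22, 1.12, 1.73, 24.7 and 2.46 FPKM and the cytokine Il11 0.548, 1.25, 0.664, 11.04 and 1.02 FPKM, and in all 3 of these kidney 4 was the highest. Sumo2 had 2.45, 32.2, 2.09, 6.12 and 2.39 FPKM and Tmem254c 18.4, 7.97, 0.845, 4.05 and 9.14 FPKM, with kidney 2 and kidney 1 the highest in turn. Both have near-identical copies in the mouse genome, so that their counts are uncertain.

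Spread was also compared with the lowess trend of SD on mean level. The median SD was 0.31 for genes with a mean of 1 to 10 CPM and 0.11 for those of 100 to 1000 CPM, but 0.22 for those above 1000 CPM. Among protein-coding genes with a mean of at least 5 CPM, the largest ratios of SD to trend were those of Ren1 (16.5), Egf (14.4), Miox (14.2) and Slc7a13 (14.2). Miox, the inositol oxygenase of the proximal tubule at chr15:89334398-89337015, had 62.4, 57.7, 213, 10.9 and 26.8 FPKM. Of the 10 genes of largest ratio 8 were highest in kidney 3 and 8 were lowest in kidney 4, the carboxylesterase Ces1f with 11.4, 12.4, 45.5, 2.11 and 7.90 FPKM and the urate transporter Slc22a12 with 55.8, 56.5, 174, 12.7 and 39.8 FPKM among them. The exceptions in the highest kidney were Ren1 and Slfn4, a myeloid gene of the Schlafen family that had 5.46, 3.13, 4.79, 49.7 and 8.85 FPKM.

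**Figure D4:**
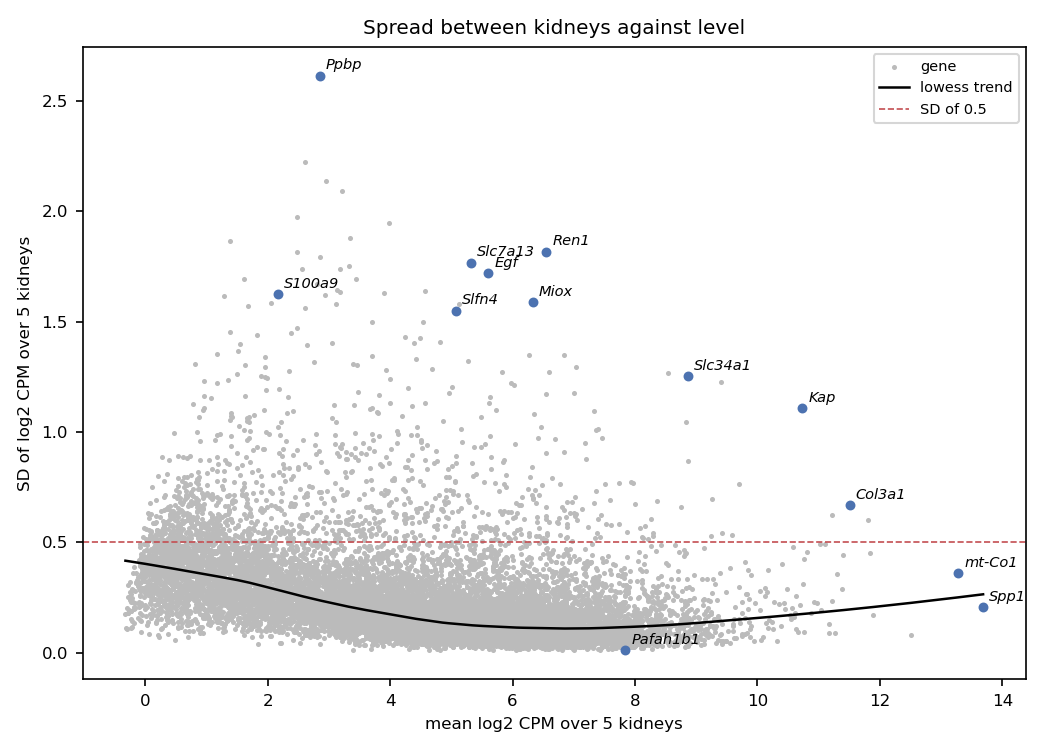
SD of log2 CPM over 5 kidneys against mean log2 CPM for the 15477 kept genes, with the lowess trend as a black line and an SD of 0.5 as a dashed line. Ren1, Egf, Miox and Slc7a13 lie far above the trend, whereas Spp1 and mt-Co1, at the highest levels, lie closer to it.

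Gene families differed in how many members had an SD above 0.5, which held for 7.50% of all kept genes. Of 299 solute carrier genes kept, 65 (21.7%) passed, and of the 17 in the Slc22 family 11 (64.7%). Among 36 cytochrome P450 genes 15 (41.7%) passed that value, and among 38 collagen genes 13 (34.2%). Proteasome subunits and vacuolar ATPase subunits had 0 of 38 and 0 of 21, with a median SD of 0.06 and 0.15. Of 80 ribosomal protein genes 3 (3.75%) passed, and of 349 zinc finger genes 8 (2.29%). The families were picked by symbol after the values were seen.

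Summed levels of these families showed the same division. The Slc22 family had summed FPKM of 250.3, 255, 637, 106 and 196, and cytochrome P450 genes of 575, 579, 1167, 413 and 619.8. Kidney 3 was the highest and kidney 4 the lowest in both. Collagens ran the other way with 1628, 2102, 1342, 2607 and 2052 FPKM, while proteasome subunits were level at 1338, 1338, 1338, 1389 and 1398 FPKM.

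Among noncoding and imprinted genes, chosen after their values were seen, the spread was wide at low levels. H19, the imprinted noncoding RNA of fetal and regenerating tissue, had 0.384, 5.38, 0.928, 14.6 and 7.59 FPKM and Meg3, of the imprinted Dlk1 region, 0.0870, 0.164, 0.0924, 0.579 and 0.159 FPKM. Both were highest in kidney 4 and lowest in kidney 1. Malat1, an abundant nuclear RNA, was more level at 97.5, 71.2, 61.5, 77.1 and 82.98 FPKM.

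Among protein-coding genes with a mean of at least 50 CPM, the 10 of smallest SD had SDs between 0.01 and 0.02. They included Pafah1b1, a regulator of dynein, with 23.002, 22.9, 22.5, 23.1 and 23.001 FPKM, the RNA-binding protein Celf1 with 19.7, 19.6, 19.4, 19.9 and 19.7 FPKM, Washc5, of the endosomal WASH complex, with 25.3, 24.9, 25.2, 25.2 and 25.7 FPKM, and the focal adhesion protein paxillin (Pxn) with 27.9, 27.2, 27.1, 27.2 and 27.6 FPKM. Of genes often used as references, looked up after the values were seen, Hprt had 65.6, 62.5, 62.7, 65.7 and 71.4 FPKM with an SD of 0.07, Tbp 1.72, 1.62, 1.64, 1.59 and 1.64 FPKM with an SD of 0.04, and Actb 562, 561, 457, 648 and 590.1 FPKM with an SD of 0.18. Actb was lowest in kidney 3 and highest in kidney 4.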

How the data were processed

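RNA-seq reads of 5 obstructed kidneys were aligned by the authors to mouse build mm10, with HISAT2 2.0.5 per the submitters' processing notes. The counts per gene used here were deposited by the authors without normalization. The FPKM were deposited by the authors as counts divided by gene length and an effective library size. How strand and reads matching several places were treated is not given in the sources used here. Of 54532 gene identifiers, 54495 were found in GENCODE release 21, 53411 of them with a deposited length equal to the merged exon length. The deposited columns of group means, log2 fold change, p and adjusted p were not used.

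Counts were filtered with filterByExpr and scaled with TMM in edgeR 4.0.16 (R 4.3.3), which gave log2 CPM with a prior count of 2. The SD over 5 kidneys was compared with a lowess trend (fraction 0.3, statsmodels 0.14.6). Lists covered 569 genes in 51 lists, with 4 of 573 symbols not matched, and each list mean was taken over the genes kept. The filter, scaling, SD and dispersion steps were also run on simulated counts, and the other steps were not part of that run. Depth was between 16457495 and 18078777 counts, and reads are not independent molecules. No groups were compared, since 1 group was described, and the only rule with a critical value was Dixon's for single kidneys.

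Named genes were the 15 leading nuclear and the mitochondrial genes, the defining and most abundant genes of each list, and the most variable, most above trend and least variable genes, 288 in all. Avpr2, Gapdh, Gbp2, Ifit1, Irgm1 and Tagln lie outside this rule. These genes, Ighm and Xist were chosen after their values were seen. Members and lists were chosen with earlier results of these data known. Alternatives tried were RLE and library size scaling, other filters and prior counts, TPM, protein-coding genes only, and leaving out kidneys. Some genes are not reported.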

Additional observations from a re-analysis of the deposited data

Results flagged for a closer look

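Genes were taken here as log2 CPM, on which gaps differ from those of the FPKM printed above. Lists were taken as mean log2 CPM and library measures as they stand. A kidney was picked where the gap to its nearest neighbour, divided by the range of all 5 kidneys, passed Dixon's 95% limit. By chance this picks about 1 in 20 groups of 5 values, a rate that does not hold for genes named for their spread or after their values were seen. It picked 2 of 13 library measures, 3 of 44 lists and 14 of 152 genes, where the share of lists is near that rate, and genes are not independent of each other.

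Kidney 3 was far above the rest in the mitochondrial share of counts (gap over range 0.803), the mitochondrial genome list (0.733), mt-Co1 (0.743) and mt-Atp6 (0.735), and far below in Gm23935 (0.848), the rRNA gene CT010467.1 (0.846) and Mgp (0.749). Kidney 4 was far above in the plasma cell list (0.770), Jchain (0.886), Ighm (0.759), Hcar2 (0.753), Il11 (0.736), Csf3r (0.728) and Akr1b7 (0.711). Kidney 4 was also set apart at the top in Celf1 (0.839 on the log2 CPM scale). Celf1 is among the genes of least spread, and all 5 kidneys lay within a narrow range. Kidney 4 was far below in the MHC class II list (0.753) and H2-Ab1 (0.758). Kidney 2 was far below in Ly6a (0.807), and kidney 1 far above in the share of counts on long intergenic noncoding RNAs (0.738).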

How the results depend on the processing

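Without the mitochondrial genome the top 10, 50 and 100 genes held 4.52, 10.7 and 14.9% of counts. The mean of log2(FPKM + 0.1) in place of the median moved 22 of 45 list levels. On the log2 scale podocyte markers moved from 0.06 below all genes to 0.37 above and MHC class II from 6.28 to 4.91 above. Intercalated cells moved from 0.60 above to 0.22 below. Monocytes, which went from 0.20 below to 0.05 above, were not counted among the levels that moved. Genes with an SD above 0.5 numbered 7721 with no filter and 611 at a mean CPM of at least 5, and those above 1 numbered 702 with no filter. As a median over genes 8 of 44 list SDs moved: macrophage from 0.16 to 0.24, complement 0.0978 to 0.27, glycolysis 0.14 to 0.24, B cell 0.13 to 0.23, circadian clock 0.12 to 0.196, distal convoluted tubule 0.42 to 0.26, tubular injury 0.198 to 0.11 and immediate early 0.22 to 0.11.

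Leaving out kidneys 3 and 4 together, chosen after seeing the data, gave 762 genes above 0.5 and 45 above 1. Of 44 list SDs 27 moved, among them 0.16 for shared proximal tubule, 0.55 for S3, 0.0665 for podocyte, 0.41 for thick ascending limb, 0.20 for matrix, 0.0748 for macrophage, 0.37 for neutrophil and 0.0715 for male kidney. Leaving out each kidney in turn gave 94 to 218 genes above 1, and list SDs of 0.54 to 0.997 for shared proximal tubule, 0.68 to 1.27 for S3, 0.40 to 0.72 for thick ascending limb, 0.68 to 1.18 for renin, 0.0726 to 0.18 for macrophage, 0.44 to 1.41 for neutrophil and 0.44 to 0.98 for male kidney. The cause of these shifts was not tested, apart from the fewer kidneys or genes that each setting holds.

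With 5 kidneys of 1 group, levels describe obstructed tissue only, and kidneys of like age and sex limit how far the spread carries. Genes with low counts carry more counting error. No paired analysis was possible because only 1 group was described.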
